A study of Mus musculus with 3 samples.

Results

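The anterior primitive streak (PrS) and organizer genes examined here were 10 genes chosen by name from the 55487 genes of the expression table: the transcription factor genes Lhx1, Gsc, Mixl1, Foxa1, Foxa2, Hhex and Noto, the secreted BMP antagonist genes Chrd and Nog, and the ligand gene Shh. No measured value entered the choice by name, although earlier results of these data were known when it was made. RNA sequencing was performed on embryoid bodies (EBs), aggregates in which mouse ES cells begin to form embryonic lineages. All EBs came from wild-type (WT) cells of 1 ES line, E14K, and were grown in medium free of LIF, first in hanging drops and then in suspension. The 3 groups were control EBs on day 3 and on day 4, called control day 3 and control day 4 here, which received the vehicle DMSO, and EBs on day 4 that had been exposed to 30 μM C2 ceramide, a cell-permeable ceramide with a short acyl chain, since the beginning of day 3. Each group had 1 library and no replicate, so the differences below carry no test, and only their size and counting error are given.

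The PrS is the site through which epiblast cells leave to become mesoderm and endoderm. Its anterior end gives rise to the node and notochord, called the organizer because transplanted organizer tissue patterns its neighbours, and to the anterior definitive endoderm. High Nodal signalling favours these anterior fates, and the organizer secretes BMP antagonists, with Shh following in the node and notochord.

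The comparisons address whether these genes rose as control EBs passed from day 3 to day 4, and whether C2 ceramide altered their day 4 level. Levels are given in TPM, a unit of transcript abundance scaled to transcript length and library total, with the estimated read count in parentheses or beside them. A ratio past 2-fold was counted as higher or lower, and each interval is an exact 95% counting interval that covers counting error only, because the reads carried no molecular identifiers and copies of 1 molecule were counted separately. All 10 genes had at least 10 counts in at least 1 library, as did 17655 genes in all, which are the genes called tested below. The library totals were 33619197 counts (control day 3), 35078820 counts (control day 4) and 35290094 counts (C2 ceramide day 4), and mitochondrial genes took between 0.651% and 0.768% of them. EBs hold a mixture of cells, so fewer cells of a type and less RNA per cell cannot be told apart in these levels.

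All 10 genes were higher on day 4 than on day 3 in control EBs, against 12.5% of all tested genes higher and 9.16% lower. With C2 ceramide, 8 of the 10 were lower than in control EBs of the same day and none was higher, against 12.1% of all tested genes lower and 9.80% higher. The 2 genes that did not pass 2-fold were Nog and Noto. The median log2 ratio over the 10 genes, with genes at 0 counts set at their bound, was 3.53 for control day 4 over control day 3 and −3.83 for treated over control EBs on day 4, whereas over all tested genes these medians were 0.05 and −0.03. The comparisons share the control day 4 library, so that a deviation of that library would move both in opposite directions.

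**Figure D1:**
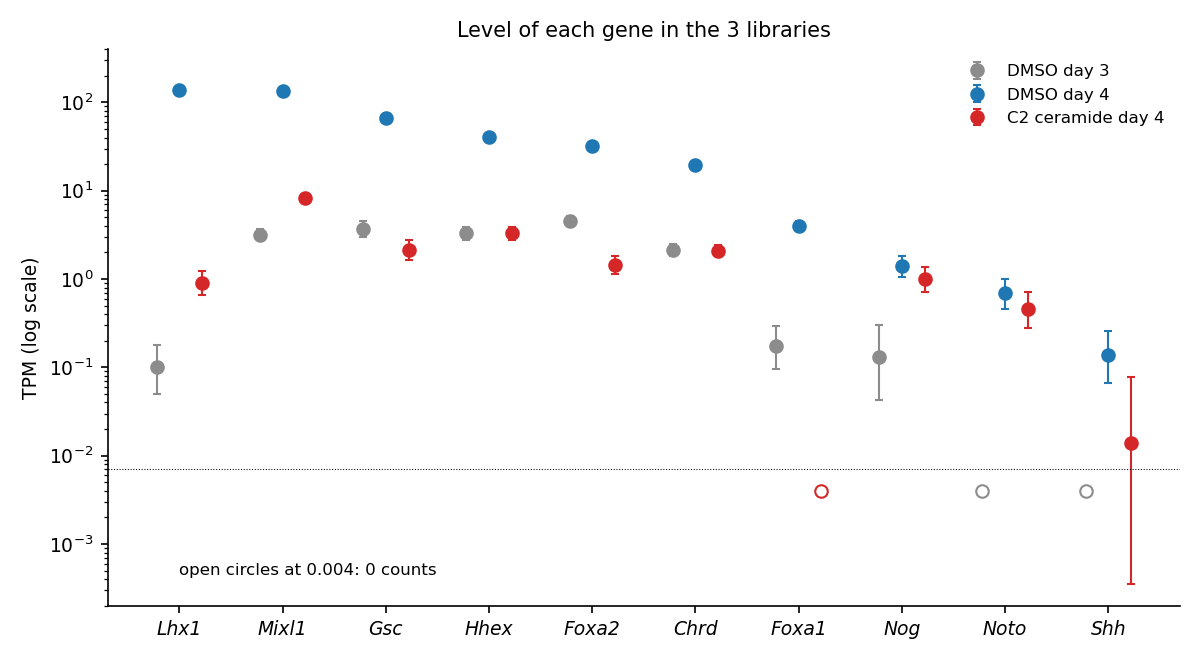
Level of the 10 genes in each library (control libraries are labelled DMSO in all plots), in TPM on a log axis, with 95% counting intervals for each point and open circles below the dotted line for libraries at 0 counts. The control day 4 point is the highest for every gene, and the C2 ceramide point lies close beneath it only for Nog and Noto.

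**Figure D2:**
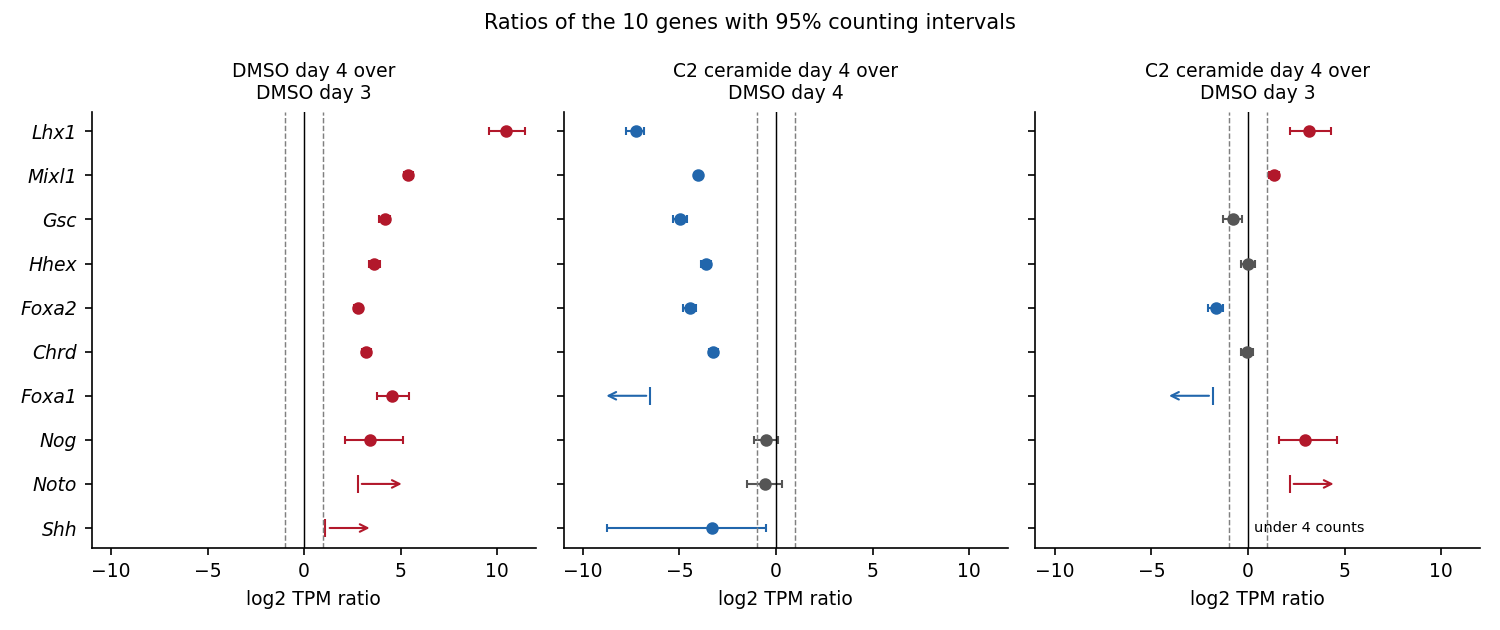
Log2 TPM ratios of the 10 genes in the 3 comparisons, with 95% counting intervals, dashed lines at 2-fold and arrows from the finite end of the interval where 1 library had 0 counts. Ratios past 2-fold are red when higher and blue when lower, and Shh is left out of the right panel because its libraries held 1 count and 0 counts.

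Sequences before the start sites of these genes were taken from RefSeq (assembly GRCm38.p6), which had entries for 7 of the 10 genes, all but Mixl1, Nog and Shh. The 4 windows below are shown because these 4 genes had the largest falls with C2 ceramide, and because 2 of them, those of Lhx1 and Gsc, also hold the start of a noncoding gene on the other strand that is described later. Each is written 5′ to 3′ on the minus strand, on which all 4 genes lie, and ends before the first base of the gene's main annotated transcript. The Lhx1 and Gsc windows lie outside their genes, and those of Foxa1 and Foxa2 lie within the span of an annotated transcript that starts further upstream. Capitals mark matches on either strand to a forkhead motif (TGTTTAC), to the core of a TATA box, spelled TATAAA, or to a CCAAT box.
Lhx1, chr11:84525536-84525784: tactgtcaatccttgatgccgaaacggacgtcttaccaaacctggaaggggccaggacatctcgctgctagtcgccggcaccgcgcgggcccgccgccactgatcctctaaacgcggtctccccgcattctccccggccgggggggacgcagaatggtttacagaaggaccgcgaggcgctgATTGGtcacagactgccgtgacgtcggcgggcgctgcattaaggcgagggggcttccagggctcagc
Gsc, chr12:104473331-104473486: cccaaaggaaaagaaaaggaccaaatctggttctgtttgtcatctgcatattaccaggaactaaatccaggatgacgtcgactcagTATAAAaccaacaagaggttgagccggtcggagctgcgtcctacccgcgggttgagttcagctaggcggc
Foxa1, chr12:57546122-57546361: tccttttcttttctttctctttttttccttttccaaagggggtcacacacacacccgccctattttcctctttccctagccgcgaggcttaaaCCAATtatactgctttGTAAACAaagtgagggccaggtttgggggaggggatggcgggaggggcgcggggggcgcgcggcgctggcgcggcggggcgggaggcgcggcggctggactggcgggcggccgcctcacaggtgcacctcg
Foxa2, chr2:148045949-148046198, before the start of its most abundant transcript: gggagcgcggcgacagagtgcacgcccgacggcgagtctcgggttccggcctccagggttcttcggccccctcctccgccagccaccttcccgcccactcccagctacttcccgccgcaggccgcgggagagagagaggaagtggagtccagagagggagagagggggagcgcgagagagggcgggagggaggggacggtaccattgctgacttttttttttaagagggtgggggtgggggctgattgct

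The Lhx1 window held 1 CCAAT box, on the other strand, and the Gsc window held 1 TATA box. The Foxa1 window held 1 CCAAT box and, on the other strand, 1 forkhead motif, while the Foxa2 window held none of the motifs. Over the 9 windows of the 7 genes, 4 held a CCAAT box, 2 a TATA box and 1 a forkhead motif within 250 bases before the RefSeq start, against 33.8%, 12.4% and 3.16% of 32817 mouse promoters. The other 5 motifs searched on both strands were in none of the 9 windows. They were the FOXH1 site spelled AATCCACA, which 0.719% of all promoters held, the T-box half-site spelled AGGTGTGA, held by 1.12%, the TCF/LEF site spelled CTTTGAT, held by 3.21%, the LIM homeodomain core spelled TAATTA, held by 4.85%, and the core common to GSC and OTX2 that is spelled TAATCC, held by 6.25%. The first and the last of these can overlap each other by 5 bases. These are matches of letters in short windows, and more distant elements were not searched.

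Among the transcription factors, Lhx1 had the largest rise of those with counts on day 3. It encodes a LIM-homeodomain factor needed for the head organizer (ENSMUSG00000018698.15, chr11:84518284-84525535, minus strand). Its level was 0.101 TPM on control day 3 (11 counts), 139.4 TPM on control day 4 (10418 counts) and 0.909 TPM with C2 ceramide (41 counts). Lhx1 was thus near the detection limit on day 3 and the most abundant of the 10 genes 1 day later. The ratio of control day 4 over day 3 was 1380-fold (log2 10.43, interval 9.59 to 11.43), and the level with C2 ceramide was 153-fold lower than in control EBs (log2 −7.26, interval −7.74 to −6.82). Treated EBs held 0.652% of the control day 4 level.

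Gsc and Mixl1 had smaller rises and falls than Lhx1. Gsc, a homeobox gene first known from the organizer (ENSMUSG00000021095.5, chr12:104471209-104473330, minus strand), was at 3.70 TPM on control day 3 (101 counts), 66.1 TPM on control day 4 (1852 counts) and 2.13 TPM with C2 ceramide (60 counts). It was 17.9-fold higher on control day 4 than day 3 and 31.0-fold lower with C2 ceramide than in control EBs (log2 −4.95, interval −5.35 to −4.58), so its treated level lay below that of day 3. Mixl1, a paired-like homeobox gene of the PrS that is needed for normal mesendoderm and definitive endoderm (ENSMUSG00000026497.7, chr1:180693043-180697034, minus strand), was at 3.19 TPM on control day 3 (179 counts), 134.4 TPM on control day 4 (7703 counts) and 8.17 TPM with C2 ceramide (472 counts). It was 42.1-fold higher on control day 4 than day 3 (log2 5.40, interval 5.18 to 5.62) and 16.5-fold lower with C2 ceramide than in control EBs (log2 −4.04, interval −4.18 to −3.91). Unlike Gsc, Mixl1 with C2 ceramide stayed above its day 3 level, at a log2 ratio of 1.36 (interval 1.10 to 1.61).

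The forkhead genes Foxa1 and Foxa2 encode pioneer factors of endoderm, and Foxa2 is also required for the node and notochord. Foxa2 (ENSMUSG00000037025.11, chr2:148042877-148046969, minus strand) was at 4.60 TPM on control day 3 (231 counts), 31.9 TPM on control day 4 (1677 counts) and 1.45 TPM with C2 ceramide (78 counts). It had the highest level of the 10 genes on day 3, although its interval overlapped that of Gsc, and it had the smallest rise of the 8 genes with counts on day 3, 6.92-fold (log2 2.79, interval 2.59 to 3.00, which overlapped that of Chrd). With C2 ceramide it was 22.0-fold lower than in control EBs (log2 −4.46, interval −4.80 to −4.13) and 3.17-fold lower than on day 3. Foxa1 (ENSMUSG00000035451.7, chr12:57540628-57546916, minus strand) was at 0.173 TPM on control day 3 (14 counts), 4.03 TPM on control day 4 (334 counts) and was listed at 0 with C2 ceramide. The rise was 23.3-fold (log2 4.54, interval 3.77 to 5.43), and the treated level was at least 112-fold lower than control day 4 and at least 4.90-fold lower than day 3, taking 3 counts as the limit that a count of 0 allows. Foxa1 was the only member with no count in treated EBs.

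Hhex, a homeobox gene of anterior endoderm whose product is a repressor (ENSMUSG00000024986.12, chr19:37434810-37440731, plus strand), was at 3.29 TPM on control day 3 (125 counts), 40.9 TPM on control day 4 (1732 counts) and 3.33 TPM with C2 ceramide (141 counts). The rise was 12.5-fold and the fall with C2 ceramide 12.3-fold (log2 −3.62, interval −3.88 to −3.37), and treated EBs on day 4 differed from day 3 by a log2 ratio of 0.02 (interval −0.34 to 0.38). Noto, a homeobox gene of the node and notochord (ENSMUSG00000068302.8, chr6:85423886-85428877, plus strand), had 0 counts on control day 3, 0.686 TPM on control day 4 (28 counts) and 0.460 TPM with C2 ceramide (19 counts). It was at least 8.94-fold higher on control day 4 than day 3. Its log2 ratio of treated over control EBs was −0.58, with an interval from −1.50 to 0.32 that holds both no difference and a fall of over 2-fold, so a change of Noto with C2 ceramide was not detectable at this depth.

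The secreted BMP antagonists had unlike ratios with C2 ceramide. Chrd (ENSMUSG00000006958.14, chr16:20733127-20742384, plus strand), whose product chordin binds BMPs outside the cell, was at 2.15 TPM on control day 3 (173 counts), 19.8 TPM on control day 4 (1729 counts) and 2.10 TPM with C2 ceramide (196 counts). It was 9.21-fold higher on control day 4 than day 3 and 9.45-fold lower with C2 ceramide than in control EBs (log2 −3.24, interval −3.46 to −3.03), ending at its day 3 level (log2 ratio to day 3 −0.04, interval −0.34 to 0.27). Nog (ENSMUSG00000048616.4, chr11:89300638-89302332, minus strand), whose product noggin also binds BMPs, was at 0.130 TPM on control day 3 (5 counts), 1.40 TPM on control day 4 (55 counts) and 0.993 TPM with C2 ceramide (39 counts). Nog rose 10.8-fold from day 3 to day 4 (log2 3.43, interval 2.12 to 5.11). With C2 ceramide its log2 ratio to control EBs was −0.50 (interval −1.13 to 0.12), an interval that did not overlap that of Chrd.

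Shh, the Hedgehog ligand of node, notochord and floor plate (ENSMUSG00000002633.4, chr5:28456815-28467256, minus strand), was barely detected. It had 0 counts on control day 3, 10 counts on control day 4 (0.139 TPM) and 1 count with C2 ceramide (0.014 TPM). It was at least 3.19-fold higher on control day 4 than day 3. The log2 ratio of treated over control EBs was −3.31, but with 1 count its interval ran from −8.75 to −0.50 and so included falls of less than 2-fold. Shh and Noto passed 2-fold between days only against a level of 0, and with 1 TPM added to every value neither did (log2 0.19 and 0.75).

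**Figure D3:**
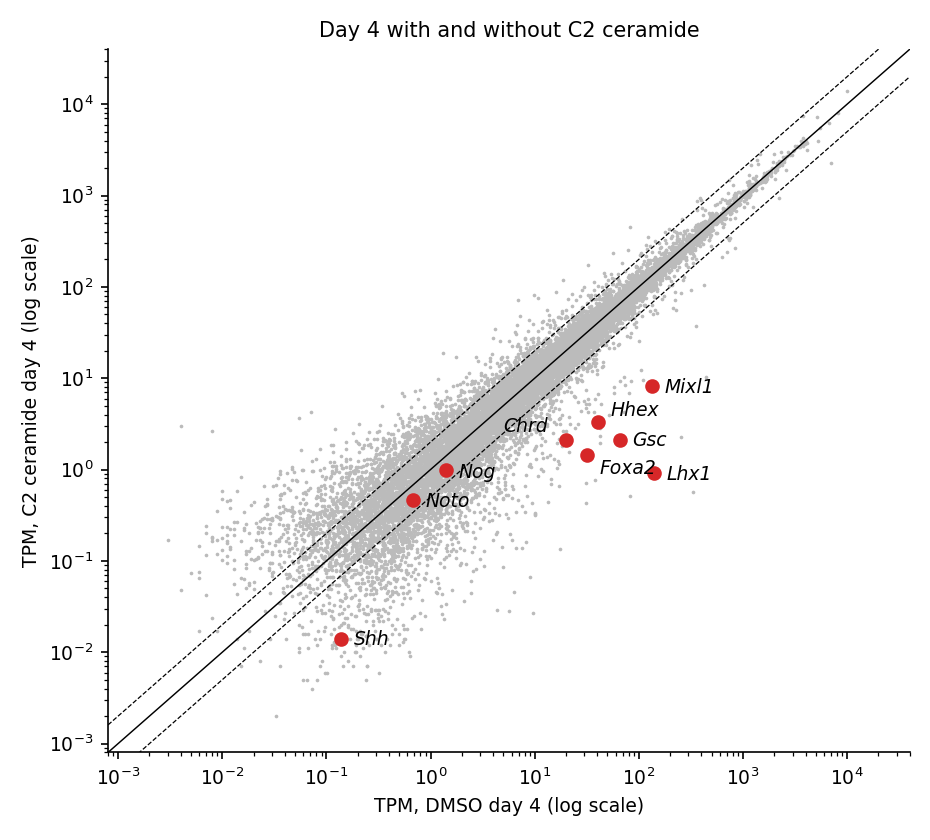
TPM with C2 ceramide against TPM in control (DMSO) EBs on day 4, both on log axes, for the 16856 tested genes above 0 in both libraries (grey) and the 9 of the 10 genes among them (red), with equality as a solid line and 2-fold as dashed lines. Nog and Noto lie between the dashed lines and the other 7 below them, and Foxa1, at 0 with C2 ceramide, cannot be drawn on a log axis.

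The order of the levels differed between the libraries. On control day 4 it was Lhx1, Mixl1, Gsc, Hhex, Foxa2, Chrd, Foxa1, Nog, Noto and Shh, and only Lhx1 and Mixl1 had overlapping intervals among neighbours. On control day 3 Foxa2, Gsc, Hhex and Mixl1 lay between 4.60 and 3.19 TPM with each interval overlapping the next, followed by Chrd, then by Foxa1, Nog and Lhx1, whose neighbouring intervals overlapped, and by Noto and Shh at 0. With C2 ceramide Mixl1 and Hhex came first, Gsc and Chrd could not be separated, Foxa2, Nog, Lhx1 and Noto each overlapped the next, and Shh and Foxa1 came last. Lhx1 therefore passed from the last of the detected genes on day 3, with an interval that overlapped that of Nog, to the first place on control day 4, and was seventh in treated EBs.

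Set against control day 3, EBs after C2 ceramide fell into 3 patterns. Lhx1, Mixl1, Nog and Noto were higher than on day 3, Foxa1 and Foxa2 were lower, and Gsc, Hhex, Chrd and Shh did not pass 2-fold in either direction, against 10.9% of all tested genes higher and 9.09% lower. Lhx1 was 9.0-fold higher (log2 3.17, interval 2.18 to 4.28), Nog 7.64-fold higher (log2 2.93, interval 1.59 to 4.63) and Noto at least 6.03-fold higher. The log2 ratio of Gsc to day 3 was −0.79 (interval −1.28 to −0.32), and Shh, at 1 count and 0 counts, was given no ratio. The median over the other 9 genes was 0.02, against 0.03 for all tested genes. This comparison uses the same libraries as those above and adds no new measurement. Most of the genes called higher were low in both libraries: with 1 TPM added to each value only Mixl1 stayed above 2-fold, and with at least 10 counts required in both libraries only Lhx1 and Mixl1 did.

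For 4 of the genes the reads were divided over several annotated transcripts. Lhx1 drew on a full-length transcript (ENSMUST00000018842.13) at 0.101 TPM on control day 3, 77.3 TPM on control day 4 and 0.254 TPM with C2 ceramide, and on a shorter protein-coding transcript that lies inside the gene (ENSMUST00000184646.2) at 0, 60.8 and 0.389 TPM. The shorter form made up 43.6% of the gene's TPM on control day 4. Another protein-coding form, 382 bases long (ENSMUST00000092827.2) gave 29.2% of the gene's TPM with C2 ceramide from 1 count. The full-length transcript alone had a log2 ratio of treated over control EBs of −8.25, and the gene's counts divided by the library total (CPM) gave −8.00 in that comparison and 1.83 over day 3, so the TPM ratios of Lhx1 in treated EBs depended on how its 41 counts were assigned to transcripts, with the same directions on each scale. The place of Lhx1 above Mixl1 on control day 4 likewise includes the shorter form.

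Foxa2 was mostly assigned to a transcript with an internal start (ENSMUST00000109964.7), which held 95% of the gene's TPM on control day 3, 87.6% on control day 4 and 100% with C2 ceramide. The transcript that starts upstream (ENSMUST00000047315.9) was listed at 0 on day 3 and with C2 ceramide and at 3.13 TPM on control day 4, or 9.83% of the gene. Hhex had 36.1% of its day 3 TPM in a transcript with an internal start (ENSMUST00000128184.2) that was at 0 in both day 4 libraries, and the log2 ratio of its main transcript (ENSMUST00000025944.8) between the control days was 4.30 rather than 3.64. For Chrd, 8 of 10 annotated transcripts were above 0 on control day 4, and the main one (ENSMUST00000007171.12) rose from 1.19 to 14.1 TPM and was at 1.82 TPM with C2 ceramide. Gsc, Mixl1, Nog and Shh had 1 annotated transcript each.

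**Figure D4:**
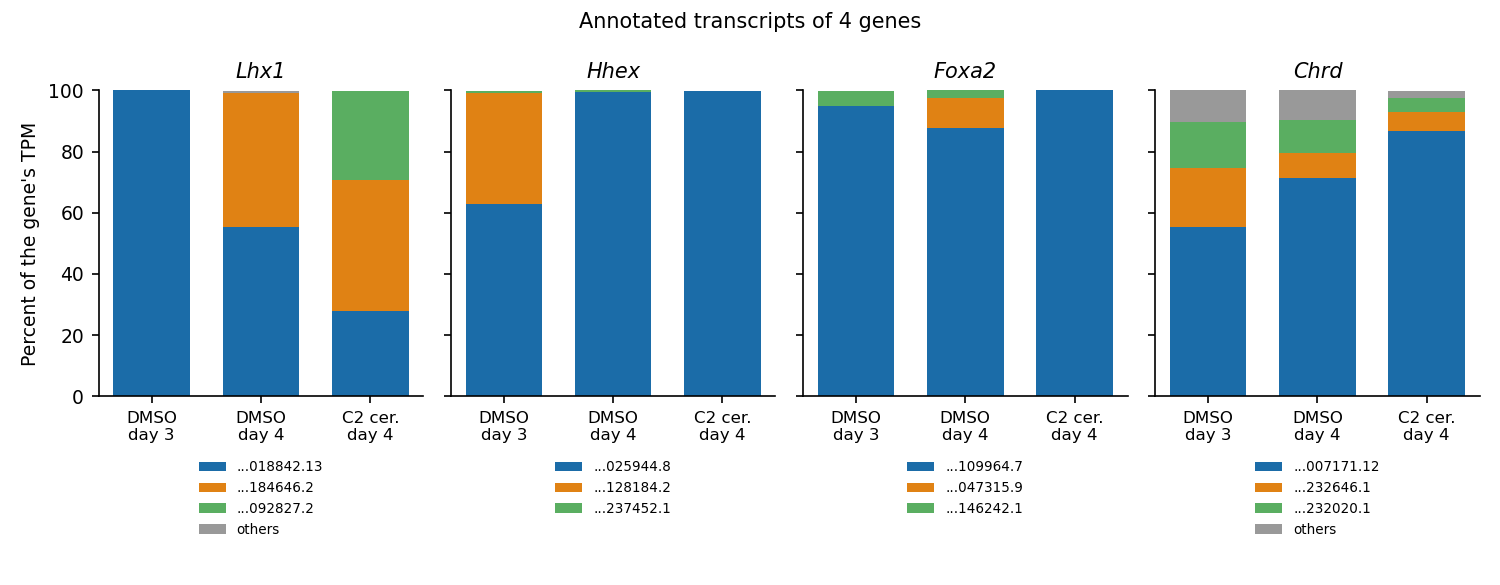
Share of each gene's TPM, in percent, assigned to its 3 main annotated transcripts (named by the end of their identifier) and to all others, in the 3 libraries, for Lhx1, Hhex, Foxa2 and Chrd. The short Lhx1 forms make up a large share on day 4 in both treatments, and Foxa2 stays with a single dominant transcript throughout.

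Genes within 2000 bases of the 10, all on the opposite strand, were read beside them. Lhx1os, a noncoding RNA gene with 124 bases between it and Lhx1 and its start within the window printed above, was at 0.218 TPM on control day 3 (2 counts), 19.8 TPM on control day 4 (185 counts) and 0 with C2 ceramide. It was 90.6-fold higher on control day 4 and at least 62.0-fold lower with C2 ceramide, the same directions as Lhx1. Gm10000, a noncoding gene annotated at a bidirectional promoter, adjoins the start of Gsc with no base between them, and had 0 counts on day 3, 22 counts on control day 4 (0.171 TPM) and 0 with C2 ceramide, that is at least 7.03-fold higher and then at least 7.38-fold lower. Thpo overlaps Chrd on the opposite strand by 1385 bases and was at 4.29, 8.01 and 4.03 TPM in control day 3, control day 4 and C2 ceramide, so neither difference passed 2-fold. The library strand is not given in the sources used here, and reads of the overlapping pair could not be told apart by strand. Gm38345, next to Hhex, had 9, 19 and 9 counts in the same order, and Gm2018 next to Nog and 9530036O11Rik, which overlaps Shh, were at 0.

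The other genes of the same tissues and pathways were counted from lists, and some genes, Cer1 among them, stand in more than 1 list. Over all tested genes, 12.5% were higher and 9.16% lower on control day 4 than day 3. With C2 ceramide, 9.80% were higher and 12.1% lower than in control EBs. Of 23 tested genes of anterior mesendoderm and node other than the 10, 11 were higher and 2 lower on control day 4 than day 3, and 1 was higher and 13 lower with C2 ceramide than in control EBs. Cer1, a secreted inhibitor of Nodal and BMP, was at 0.023 TPM on control day 3, 330.9 TPM on control day 4 and 0.564 TPM with C2 ceramide, or −9.20 as the log2 of treated over control EBs on day 4. The Wnt inhibitor Dkk1 and Foxj1, a regulator of motile cilia that is active in the node, had log2 ratios of −5.45 and −4.19. Eomes, which acts upstream of Mixl1 and Foxa2 in mesendoderm, was at 25.2, 84.7 and 9.24 TPM in control day 3, control day 4 and C2 ceramide, and T, the gene of the PrS and notochord factor brachyury, was at 3.39, 109.8 and 9.47 TPM.

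Definitive endoderm gave a like count, with 10 of 17 tested genes higher and 1 lower on control day 4 than day 3, and 11 lower and 1 higher with C2 ceramide. The endoderm regulator Sox17 rose from 0.515 TPM on control day 3 to 253.7 TPM on control day 4 and was at 2.26 TPM after C2 ceramide, with a treated over control ratio of −6.81 on the log2 scale, and the chemokine receptor gene Cxcr4 had a ratio of −7.09 from 3 treated counts (interval −9.38 to −5.53). Pyy had 51 counts on control day 4 and 0 with C2 ceramide, at least 17.1-fold lower. The single gene of the list that was higher with C2 ceramide was Sox7, which is named after its value was seen and is not a marker of definitive endoderm alone. It was at 0.108 TPM in control EBs on day 4 (10 counts) and 0.805 TPM in treated EBs (75 counts).

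Of 19 tested genes of the Nodal pathway, 3 were higher and 2 lower on control day 4 than day 3, and 2 were higher and 3 lower with C2 ceramide, where 9.80% of all tested genes were higher and 12.1% lower, with medians on the log2 scale of 0.34 and −0.32. Nodal, the ligand, was at 53.0, 45.3 and 34.4 TPM in control day 3, control day 4 and C2 ceramide, its effector gene Smad2 at 27.0, 29.9 and 33.4 TPM, and Foxh1, the DNA-binding partner of SMAD2, at 108.1, 182.6 and 123.7 TPM. Besides Cer1, the genes with the largest C2 ceramide ratios were the Nodal coreceptor gene Cfc1 (log2 −4.45) and the ligand gene Gdf3 (log2 1.83). A further list of 12 genes held cofactors of LIM-homeodomain factors, Otx2 and other LIM-domain genes, which are not all partners of Lhx1. Of these, 5 were higher on control day 4 than day 3 and 4 were lower with C2 ceramide, none in the other direction. Ldb1, whose product binds the LIM domains of Lhx1, was at 39.2, 31.3 and 46.4 TPM and Otx2, which cooperates with Lhx1 in head formation, was at 160.2 TPM on control day 3 and 144.7 TPM on control day 4 and had a log2 ratio of −0.53 with C2 ceramide, whereas the LIM-domain genes Lmo1 and Isl1 and Ldb2, which encodes a cofactor related to Ldb1, had log2 ratios of −3.16, −2.75 and −1.49 with C2 ceramide.

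The BMP list held ligands, antagonists other than Chrd and Nog, and related extracellular genes such as the protease genes Bmp1 and Tll1. Of its 20 tested genes, 13 were higher and none lower on control day 4 than day 3, Bmp1 and Tll1 among the 13. With C2 ceramide 10 were lower and none higher. Cer1 is among them, as are Bmper (log2 −4.57) and the ligand gene Bmp5, which had 69 counts on control day 4 and 0 in the other libraries, at least 23.1-fold lower with C2 ceramide. Bmp4 was at 6.38, 9.05 and 13.0 TPM. In the Hedgehog pathway, 4 of 17 tested genes were higher and none lower on control day 4. With C2 ceramide 4 were higher and 3 lower, where 9.80% of all tested genes were higher and 12.1% lower. Gas1, a Hedgehog coreceptor gene, had a log2 ratio of −3.09 with C2 ceramide, while the effector gene Gli2 had a ratio of 1.39. The ratio of the ligand gene Ihh was 3.69 (interval 2.40 to 5.37), from 5 counts in control and 64 in treated EBs on day 4. The pathway targets Ptch1 and Gli1 were at 6.47, 4.01 and 3.03 TPM and at 0.806, 0.410 and 1.04 TPM.

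**Figure D5:**
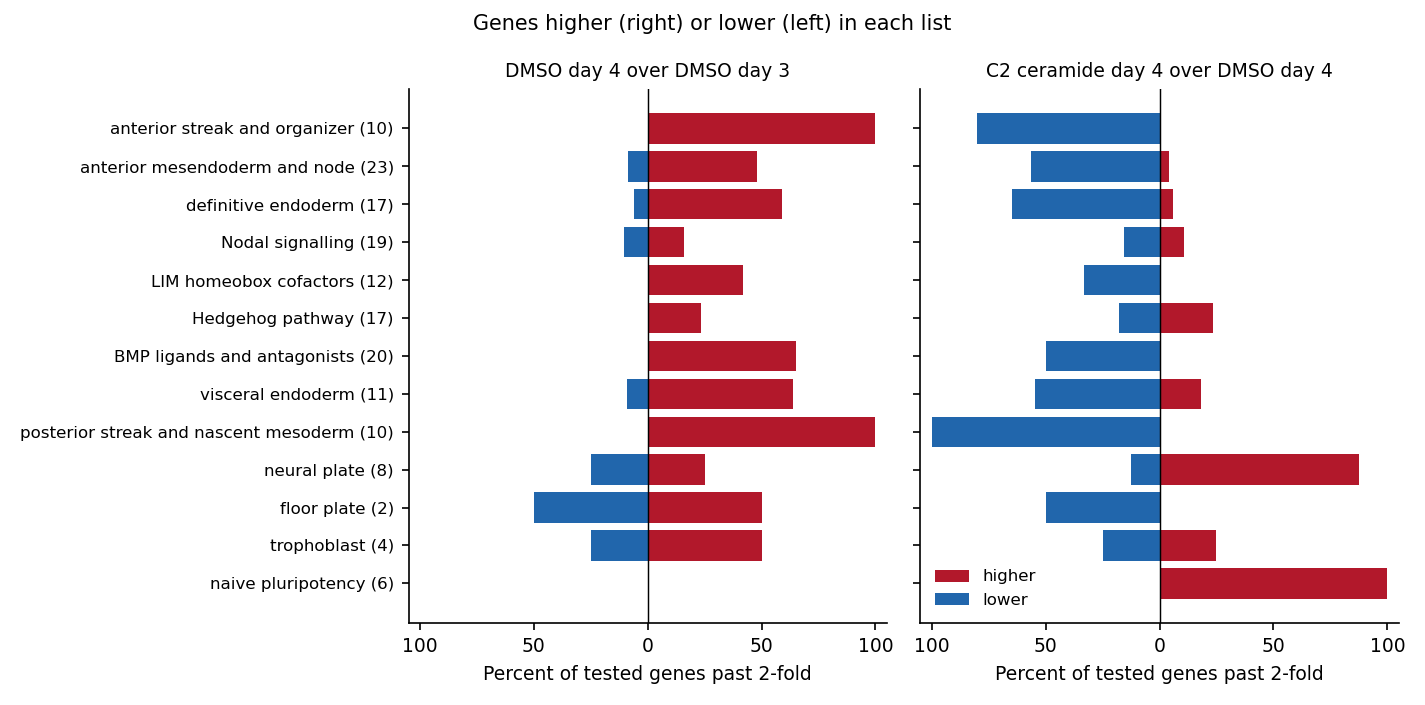
Percent of the tested genes of each list (number tested in brackets) that were higher (red, to the right) or lower (blue, to the left) by over 2-fold, for control day 4 over day 3 and for treated over control EBs on day 4. The 10 genes form the top bar, with 10 higher in the left panel and 8 lower in the right panel. The posterior streak list had 10 of 10 higher and then 10 of 10 lower, and in the right panel it is the only longer bar to the left.

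Several of the 10 genes are also used by other tissues, so markers of those tissues were read beside them. Visceral endoderm also uses Foxa2, Hhex and Lhx1. Of its 11 tested markers, 7 were higher and 1 lower on control day 4 than day 3, and 6 were lower and 2 higher with C2 ceramide. The summed levels of the list were 14.1, 40.9 and 23.4 TPM in control day 3, control day 4 and C2 ceramide. The secreted protein genes Afp, Ttr, Apoa1 and Apob were each under 1 TPM in all 3 libraries and Apoa4 was at 0. Other markers had higher levels, with Spink1 at 15.3 TPM and Rbp4 at 11.4 TPM on control day 4. Dab2, named after its value was seen, was at 7.70, 9.21 and 15.5 TPM in control day 3, control day 4 and C2 ceramide. It passed 2-fold neither between the control days nor between treated and control EBs on day 4. Spink1 (log2 −3.57), Rbp4 (−2.63) and Trf (1.71) had the largest C2 ceramide ratios of the markers that reached 50 counts in any library. Posterior streak and nascent mesoderm markers, 10 of 10, were higher on control day 4 and lower with C2 ceramide, with summed levels of 60.6, 638.7 and 54.5 TPM, led by Mesp1 (log2 −7.35), Fgf3 (−6.17) and Evx1 (−4.19). A fall with C2 ceramide was thus found in the posterior list too.

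Neural plate markers went the other way, with 7 of 8 higher and 1 lower with C2 ceramide and summed levels of 115.4, 58.5 and 139.2 TPM. Most of each sum was Sox2, at 102.2, 51.2 and 120.2 TPM, which is named after its values were seen. Rax (log2 2.69, with 4 counts on control day 4) and Sox3 (2.15) had large ratios, but neither exceeded its control day 3 level with C2 ceramide. Rax was at 1.34 TPM on control day 3 and 0.621 TPM with C2 ceramide, and Sox3 at 9.72 and 9.03 TPM. Sox1 had 66 counts with C2 ceramide and 0 in the other libraries, at least 21.9-fold higher. All 6 naive pluripotency markers were also higher with C2 ceramide, with summed levels of 174.3, 117.5 and 430.4 TPM and the largest ratios for Nr0b1 (log2 2.67), Tbx3 (1.75) and Klf4 (1.70). The floor plate list, which goes with Shh and Foxa2 in the neural tube, also holds genes of adjoining ventral domains, Olig2 among them. Of its 4 genes 2 were tested. Ntn1 was lower with C2 ceramide (log2 −2.04), and Olig2 was at 0 in both day 4 libraries. Of 4 tested trophoblast markers 1 was higher and 1 lower with C2 ceramide, Gcm1 was at 0 on control day 4, and the ratios of Cdx2, Tfap2c and Krt7 on the log2 scale were −1.46, 0.30 and 0.19. The part of these other cells in the levels of the 10 genes was not tested.

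Among protein-coding genes with at least 10 TPM in 1 library, the pattern nearest to the median of the 10 genes was that of Snai1, a repressor of epithelial genes in the PrS, at a distance of 0.140 between the pairs of log2 differences over the 3 libraries with 0.1 TPM added. Chst7 (0.193), Foxj1 (0.264), Gata4 (0.321) and Spink1 (0.337) came next. Mesp1 lay nearest to Lhx1 (0.172), Gata4 to Hhex (0.123), Gas1 to Chrd (0.156), Pcdh7 to Mixl1 (0.164), Cdh11 to Gsc (0.394) and Macroh2a2 to Nog (0.297). The nearest genes to Foxa2 and Foxa1, Foxj1 and Cdh11, were farther away, at 0.582 and 0.846. With 3 libraries this likeness rests on only 2 differences per gene and describes these libraries.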

How the data were processed

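RNA of EBs from 3 groups was sequenced, 1 library per group, and samples were grouped by GEO's labels. The authors amplified cDNA by SMART-Seq v4, built Nextera XT libraries, sequenced these on a NovaSeq instrument and quantified them with the DRAGEN Bio-IT Platform 3.6.3 with GRCm38 and GENCODE M25. The authors deposited gene and transcript tables with values in TPM. The same deposited tables hold estimated counts, which are expected counts, not whole numbers and not normalized. Reads were not used here, and 0 columns of per-sample values were left unmapped.

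Ratios of TPM were computed with pandas 2.3.3, NumPy 2.4.6 and SciPy 1.17.1 under Python 3.11.15, with plots from Matplotlib 3.10.9. A gene was tested if any library had 10 counts or more, which left 17655 of 55487. A TPM of 0 was set to 0.001 for calls of 2-fold, no call was made where both libraries had 3 counts or fewer, and a fold against 0 counts was computed against 3 counts in that library. Such a fold is given as "at least", but it takes the other library's count as exact and so lies beyond the 95% limit of the ratio. Intervals are exact conditional (Clopper-Pearson) 95% intervals of the ratio of rounded counts, shifted to the TPM ratio. With 1 library per group no test between groups could be made. Calls and intervals were tested on simulated data in which the true ratios were known.

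The 10 genes and the 12 gene lists were chosen with earlier results of these data known. Of each list, the 3 genes furthest from equality between treated and control EBs on day 4 were named, provided that 1 library had 50 counts or more, besides partners of the 10 genes (T, Eomes, Cer1, Otx2, Ldb1, Ptch1, Gli1, Foxh1, Smad2, Nodal and Bmp4), genes that overlap or adjoin them, and the 5 genes nearest to their median pattern and 2 nearest to each, of which the first is given. Sox7, Dab2, Sox2, Afp, Ttr, Apoa1, Apoa4, Apob, Gcm1, Olig2, Bmp1 and Tll1 were named outside this rule. Adjoining genes that do not overlap were added after the data were seen, as was the count of motifs. The 8 motifs were searched in the 250 bases before each RefSeq start.

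Alternatives were 0.1 or 1 TPM added to each value, other count filters, CPM, TMM factors from edgeR 4.0.16 and size factors from DESeq2 1.42.0 in R 4.3.3 (on rounded expected counts), thresholds of 1.5-fold and 4-fold, intervals wholly past 2-fold and, chosen after seeing the data, TPM of protein-coding transcripts.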

Additional observations from a re-analysis of the deposited data

How the results depend on the processing

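The count of genes higher on control day 4 than day 3, 10, ranged from 7 to 10 over the 12 alternatives, being 8 with 1 TPM added, 7 with at least 10 counts required in both libraries and 8 with at least 50 counts in 1 library. The count lower with C2 ceramide than in control EBs, 8, ranged from 6 to 8 over them. The count higher with C2 ceramide than control day 3, 4, was 1 with 1 TPM added and 2 with at least 10 counts required in both libraries, since Nog, Noto and Lhx1 had few counts on day 3, and it was 3 or 4 under the others. Of 174 ratios of single genes under other values or scalings, none changed sign among those past 2-fold, 141 stayed inside the counting interval and 33 did not, 23 of them with 1 TPM added. A ratio of Shh above 4-fold between days rests on the value set in place of 0, since against 3 counts it was 3.19-fold. The scalings moved the median log2 ratio of all genes by 0.06 or less. No paired analysis was possible because each group had 1 library. Replicate error is unknown, so the counting intervals are narrower than the error between cultures would be, and the treated levels of Lhx1, Nog, Noto, Shh and Foxa1 rest on 41, 39, 19, 1 and 0 counts.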
